A study of Drosophila melanogaster with 75 samples.

Results

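The cytosolic ribosomal protein genes of Drosophila melanogaster were followed in the heads of male flies. Members were all probe sets of the array with exactly 1 gene symbol in the platform annotation and a symbol that starts with RpL or RpS and a digit, or with RpLP. The rule gave 41 genes, read by 47 of 18769 probe sets, control spots aside; 11982 genes were named in this way on the array. The rule used names only and no measured value. Of 92 gene symbols of this form in a current gene table, 51 were not named on the array by this annotation and were not analysed here, and 3 further probe sets carried a member's symbol beside others and were not used.

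RNA was measured on 15 Affymetrix Drosophila arrays, 5 in each of 3 arms titled courtship, male and control. Each array held the heads of its own pool of 20 males from isogenized Canton-S, a wild-type laboratory stock, aged 5 days and kept singly from day 4. Courtship males met a cauterized virgin female for 20 min, and control males met no female over the same time. The arm titled male repeats the courtship arm's treatment label, so the labels do not settle what those males met, and all 3 arms, control included, carry the remark that males were kept only if they courted for 70% of the time. The pools are separate samples. The first letter of the sample codes recurs across arms (A in all 3 on replicate 1, H on courtship 4, male 5 and control 5, C and D in courtship and control, F in male and control), and the labels do not say what it stands for.

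Each ribosome joins a small subunit, which reads the messenger RNA, to a large subunit, which forms the peptide bond, and each subunit is a core of ribosomal RNA clad in many different proteins. Flies need most of these proteins in full dose: losing 1 gene copy of many of them gives the Minute phenotype of slow development and thin bristles. A few are encoded by paralogues, of which one copy usually serves the body at large while the other is known mainly from the germ line, such as RpL22-like in testis and RpS5b in ovary.

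The arrays carried the marks of head tissue. The photoreceptor genes trp and inaD had mean log2 intensities of 14.15 and 12.94, the glial gene repo 9.98 and the neuronal gene elav 8.23 over the 15 arrays. Of 10 germ line genes 9 lay under the limit of 4 used for testing, vas among them at 2.23, and the 10th, twe, averaged 4.14. In bulk heads, fewer cells of a type and less RNA per cell cannot be told apart. Arrays 1 and 5 of the male arm and array 1 of the control arm stood apart in RNA quality: the mean log2 ratio of 3-prime to 5-prime signal over 4 control transcripts was 3.23, 2.51 and 2.77 there, against 1.73 to 2.10 on the other arrays. Male array 1 also had the lowest signal for the 3-prime part of 18S ribosomal RNA, at 7.08 against 10.1 to 11.47 elsewhere.

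Most ribosomal protein genes stood near the top of the array's scale. Values are log2 of the authors' R GCRMA intensities, in which the highest value of any probe set was 15.55. Of the 47 member probe sets 35, for 33 genes, reached a mean of 4 and were tested. The median of these 35 was 14.62, against 8.71 over all 8926 tested probe sets. A mean of at least 14 was reached by 29 of the 35, and by 149 of the 8926. The remaining tested members were RpS21, RpL24-like, RpL34a, RpL7-like, RpLP0-like and the dimmer of the 2 tested RpL3 probe sets. A level here is a probe set's own brightness, so levels of different genes were not compared.

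The 12 untested probe sets sat at the floor, with means between 2.08 and 2.96 and single values between 2.07 and 3.33. For RpL3, RpS7, RpS29 and RpS30 a second probe set of the same gene was bright, so the floor value describes that probe set and not the gene. For 8 genes no other probe set was named: RpL10Aa, RpL22-like, RpL37-2, RpS5b, RpS10a, RpS19b, RpS28a and RpS28-like. RpL22-like, known from the testis, read 2.21 to 2.22 on courtship arrays, 2.21 to 2.24 on male arrays and 2.21 to 2.23 on control arrays. RpS5b, known from the ovary, read 2.45 to 2.47 on courtship arrays, 2.47 to 2.78 on male arrays and 2.47 to 2.48 on control arrays. RpS19b, also a germ line paralogue, had the lowest mean, 2.08. All 8 are alternative copies of a protein that the ribosome has in another form. Differences at the floor are not read here as expression. With the floor probe sets included, 41 of 47 members were higher in male than in control, against 30 of the 35 tested. None of the 47 was called in that fit.

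None of the 35 tested members passed the test in any comparison (limma, Benjamini-Hochberg adjusted p under 0.05 over all 8926 probe sets). In courtship against control males 0 of 35 were called, where 0% of all tested probe sets were; in male against control males 0 of 35, where 3.66% were; and in courtship against male 0 of 35, where 0% were. An unadjusted p under 0.05 was reached by 0 members in courtship against control, where 2.86% of all tested probe sets reached it, by 3 in male against control (34.1%) and by 1 in courtship against male (15.2%). The share over all in male against control rests on single arrays: of 8926 probe sets 327 were called with every array, 0 without control array 2, 7 without control array 4, 16 without control array 3, 21 without male array 5, 1027 without courtship array 2 and 0 without male arrays 1 and 5 together. The members called were 0 in each of these fits. The comparisons share arrays and are not independent of each other.

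The intervals describe the array signal of these genes. Most members lie near the top of the scale, where probe sets in general vary little, so a narrow interval bounds the signal and not the transcript. For courtship against control, 34 of 35 members had a 95% interval wholly within a 1.5-fold change either way, against 85.6% of all tested probe sets. In male against control 33 of 35 did, against 71.3%, and in courtship against male 34 of 35, against 78.6%. The dimmer RpL3 probe set lay outside in all 3 comparisons, and RpLP0-like in male against control.

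**Figure D1:**
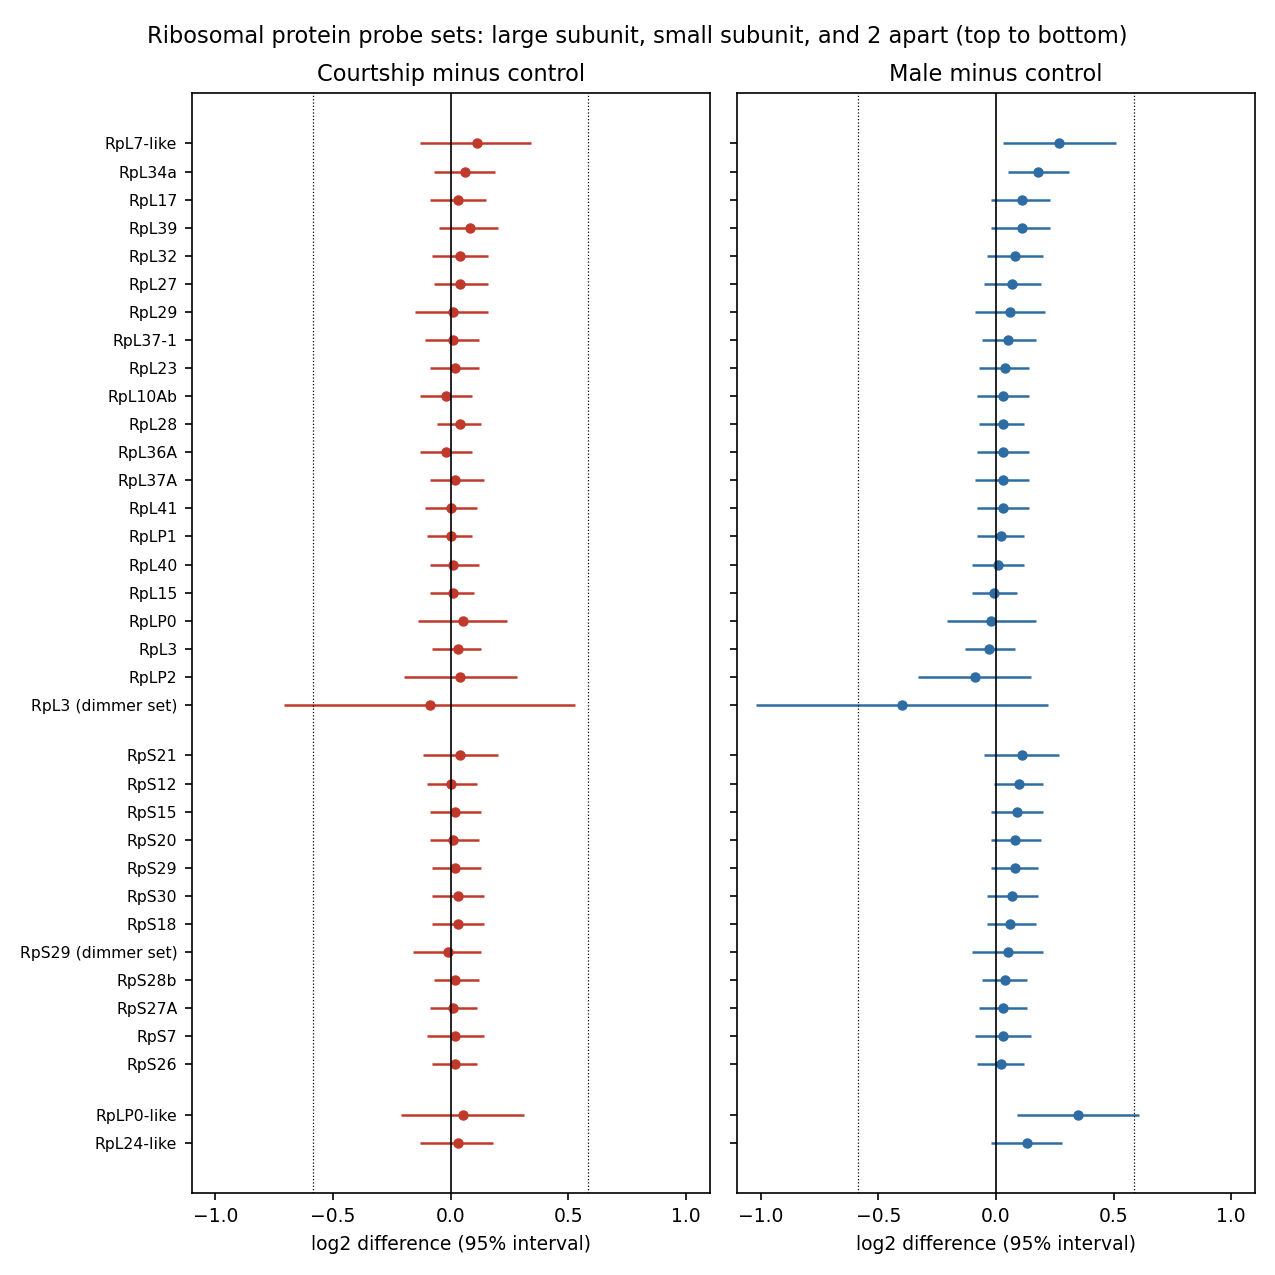
Log2 differences of the 35 tested ribosomal protein probe sets (points) with 95% intervals (lines), courtship minus control on the left and male minus control on the right. Groups from the top are 21 large subunit probe sets, 12 small subunit probe sets, and RpLP0-like with RpL24-like; dotted lines mark a 1.5-fold change. All but the dimmer RpL3 set lie between -0.09 and 0.35.

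Small differences leaned one way without passing the test. Courtship was higher than control in 29 of 35 members (82.9%), against 54.4% of all tested probe sets, with a median log2 difference of 0.02 against 0.01. Male was higher than control in 30 of 35 (85.7%), against 52.9%, with a median of 0.05 against 0.02. Courtship was higher than male in 7 of 35 (20%), against 48.1%, with a median of -0.03 against -0.01. These members share arrays and their deviations, so the sign counts were not tested. The lean depends on the processing. With the authors' dChip PM-MM values, courtship was higher than control in 13 members and lower in 22, and male was higher than control in 16 and lower in 19. Quantile normalization gave 20 higher and 15 lower for courtship against control, and the first code letter as a block gave 18 higher and 17 lower. For male against control they gave 23 and 12, and 30 and 5. The other processings kept the lean. For courtship against control, MAS5 gave 28 and 7, GeneSpring GCRMA 32 and 3, and dChip PM 26 and 9. For male against control the counts were 34 and 1, 30 and 5, and 29 and 6.

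The mean over the 35 members on each array shows the size of the lean. It was 13.93, 13.87, 13.95, 13.96 and 13.99 on the courtship arrays, 13.93, 13.98, 13.97, 13.95 and 14.02 on the male arrays, and 13.92, 13.89, 13.94, 13.88 and 13.96 on the control arrays. The arms overlapped. In the authors' MAS5 values the same mean spread more widely, with an SD between arrays within arms of 0.13 against 0.04 in R GCRMA, and it ran from 13.46 to 13.65 in courtship, from 13.38 to 13.75 in male and from 13.37 to 13.75 in control arrays.

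**Figure D2:**
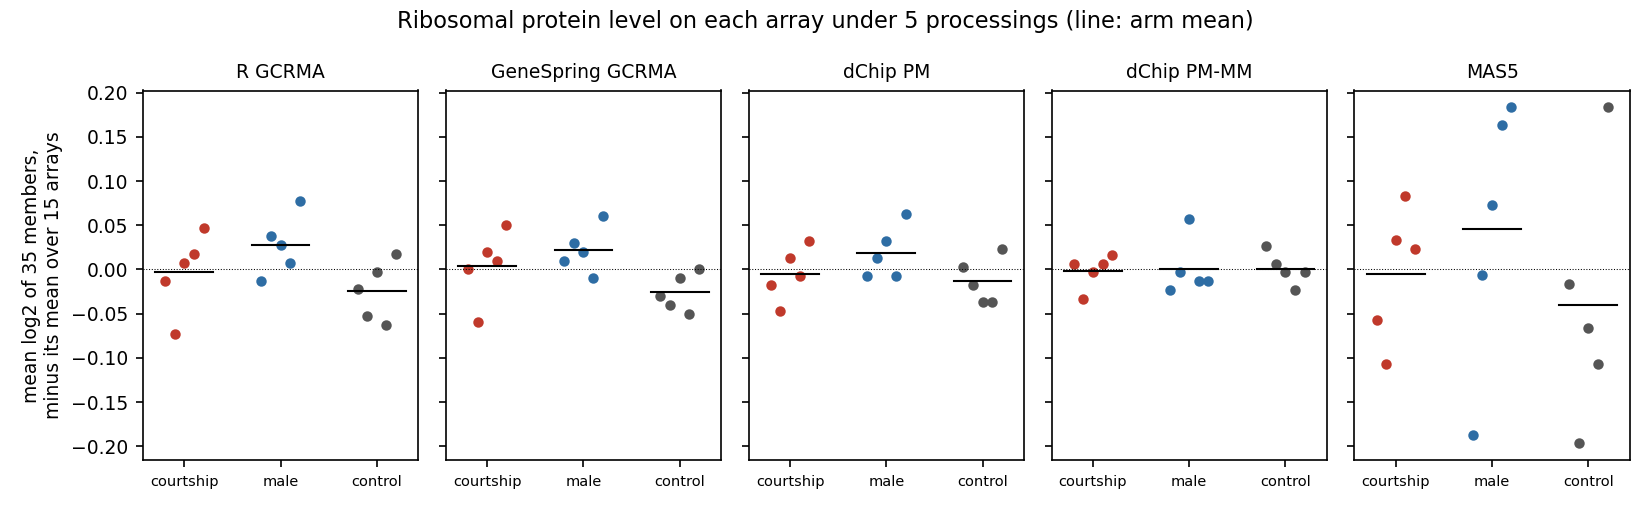
Mean log2 intensity of the 35 tested ribosomal protein probe sets on each of 15 arrays (points), as a deviation from its mean over the arrays, under the authors' 5 processings; lines are arm means. The arms overlap in every panel, and the points spread most widely with MAS5 (SD within arms 0.13, against 0.02 to 0.04 in the others).

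The proteins of the large subunit were read by 21 tested probe sets. RpL39, a small protein of the exit tunnel, had the smallest p in courtship against control: it read 14.85, 14.73, 14.89, 14.79 and 14.87 on courtship arrays and 14.69, 14.81, 14.75, 14.81 and 14.68 on control arrays. The arms overlapped, and the log2 difference was 0.08 (SE 0.06, adjusted p = 0.999). RpL32, long used under the name rp49 as a reference gene in fly expression work, read 14.58 to 14.73 in courtship, 14.58 to 14.79 in male and 14.57 to 14.67 in control arrays. Its log2 difference was 0.04 in courtship against control (95% interval -0.08 to 0.16) and 0.08 in male against control (-0.04 to 0.20). RpL40, made as a fusion with ubiquitin, differed by 0.01 in both of these comparisons (SE 0.05 each). RpL15 had the smallest spread of all the members, with a residual SD of 0.02, and differed by 0.01 in courtship against control and by -0.01 in male against control. With RpL7-like and the dimmer RpL3 set left aside, the 19 large subunit probe sets differed by -0.02 to 0.08 in courtship against control, with 15 higher, and by -0.09 to 0.18 in male against control, again with 15 higher.

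RpL34a had the smallest p of the members in male against control. It read 12.48, 12.40, 12.31, 12.41 and 12.38 on male arrays and 12.26, 12.18, 12.23, 12.11 and 12.30 on control arrays, with courtship at 12.25, 12.15, 12.27, 12.30 and 12.41. Every male array lay above every control array, at the nearest 12.31 against 12.30, while courtship overlapped both. The log2 difference of male minus control was 0.18 (SE 0.06, 95% interval 0.05 to 0.31, adjusted p = 0.0751), and it missed the threshold; without male arrays 1 and 5 it was 0.15 (adjusted p = 0.215). For courtship against control it was 0.06 (adjusted p = 0.999).

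RpLP0-like, RpL7-like and RpL24-like are related to factors that assemble the large subunit and leave before it works. RpLP0-like, relative of the yeast assembly factor Mrt4, read 7.67, 6.99, 7.18, 7.03 and 7.26 on male arrays and 6.87, 6.81, 6.90, 6.90 and 6.92 on control arrays, with courtship at 6.90, 6.65, 6.86, 7.19 and 7.05. All male values lay above all control values, and male array 1, the array with the highest 3-prime to 5-prime ratio, was the highest of all 15. The log2 difference of male minus control was 0.35 (SE 0.12, adjusted p = 0.0762), and 0.19 (adjusted p = 0.284) without male arrays 1 and 5. In courtship minus male it was -0.30 (SE 0.12, adjusted p = 0.325), and in courtship minus control 0.05 (adjusted p = 0.999).

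RpL7-like, counted here with the large subunit by its name, is related to the yeast assembly factor Rlp7. It read 10.55, 10.65, 10.54, 10.48 and 10.80 on male arrays against 10.41, 10.21, 10.48, 10.13 and 10.43 on control arrays. The lowest male value and the highest control value were both 10.48. The difference was 0.27 (SE 0.11, adjusted p = 0.107). RpL24-like, relative of the yeast assembly factor Rlp24, differed by 0.13 in male against control (SE 0.07, adjusted p = 0.201) and by 0.03 in courtship against control (adjusted p = 0.999).

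The stalk proteins recruit elongation factors to the large subunit, with RpLP0 as the base and RpLP1 and RpLP2 as its arms. RpLP1 was steady, at 15.03, 14.96, 15.01, 14.96 and 15.01 on courtship arrays, 14.99, 15.04, 15.00, 15.00 and 15.08 on male arrays, and 14.99, 14.98, 15.01, 14.98 and 15.04 on control arrays. RpLP2 had 14.03 on male array 1 and between 14.56 and 14.75 on male arrays 2 to 5, against 14.61 to 14.74 in courtship and 14.54 to 14.70 in control. RpLP0 had 14.23 on male array 1 and between 14.64 and 14.77 on male arrays 2 to 5, against 14.64 to 14.72 in courtship and 14.48 to 14.71 in control. Over all 15 arrays RpLP0 and RpLP2 were lowest on male array 1. RpLP1 was lowest in its arm there too, at 14.99, but within the range of the other arms.

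That array decided the sign of the stalk differences. In male against control RpLP2 differed by -0.09 (SE 0.11, adjusted p = 0.584) with all arrays and by 0.04 without male array 1, and RpLP0 by -0.02 (SE 0.09, adjusted p = 0.889) and 0.08. RpLP1 differed by 0.02 (SE 0.05, adjusted p = 0.751). Courtship against control gave 0.05 for RpLP0, 0.00 for RpLP1 and 0.04 for RpLP2.

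RpL3, at the peptide-bond centre of the large subunit, was read by 3 probe sets that behaved differently. The bright one averaged 14.50 ± 0.03 in courtship, 14.44 ± 0.05 in male and 14.47 ± 0.03 in control (SD, n = 5 each). The dimmer tested one read 6.91, 6.87, 6.47, 6.87 and 6.80 on courtship arrays, 5.35, 7.01, 6.74, 7.12 and 6.13 on male arrays, and 6.20, 7.03, 6.91, 6.83 and 7.37 on control arrays. Its 3 lowest values were on male arrays 1 and 5 and control array 1, the arrays with the 3 highest 3-prime to 5-prime ratios. Its residual SD of 0.50 was the largest of the members. In male against control it differed by -0.40 (SE 0.29, adjusted p = 0.335), by -0.19 with the ratio as a covariate and by -0.08 without those 3 arrays. The third RpL3 probe set was at the floor, apart from a control value of 3.33.

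**Figure D3:**
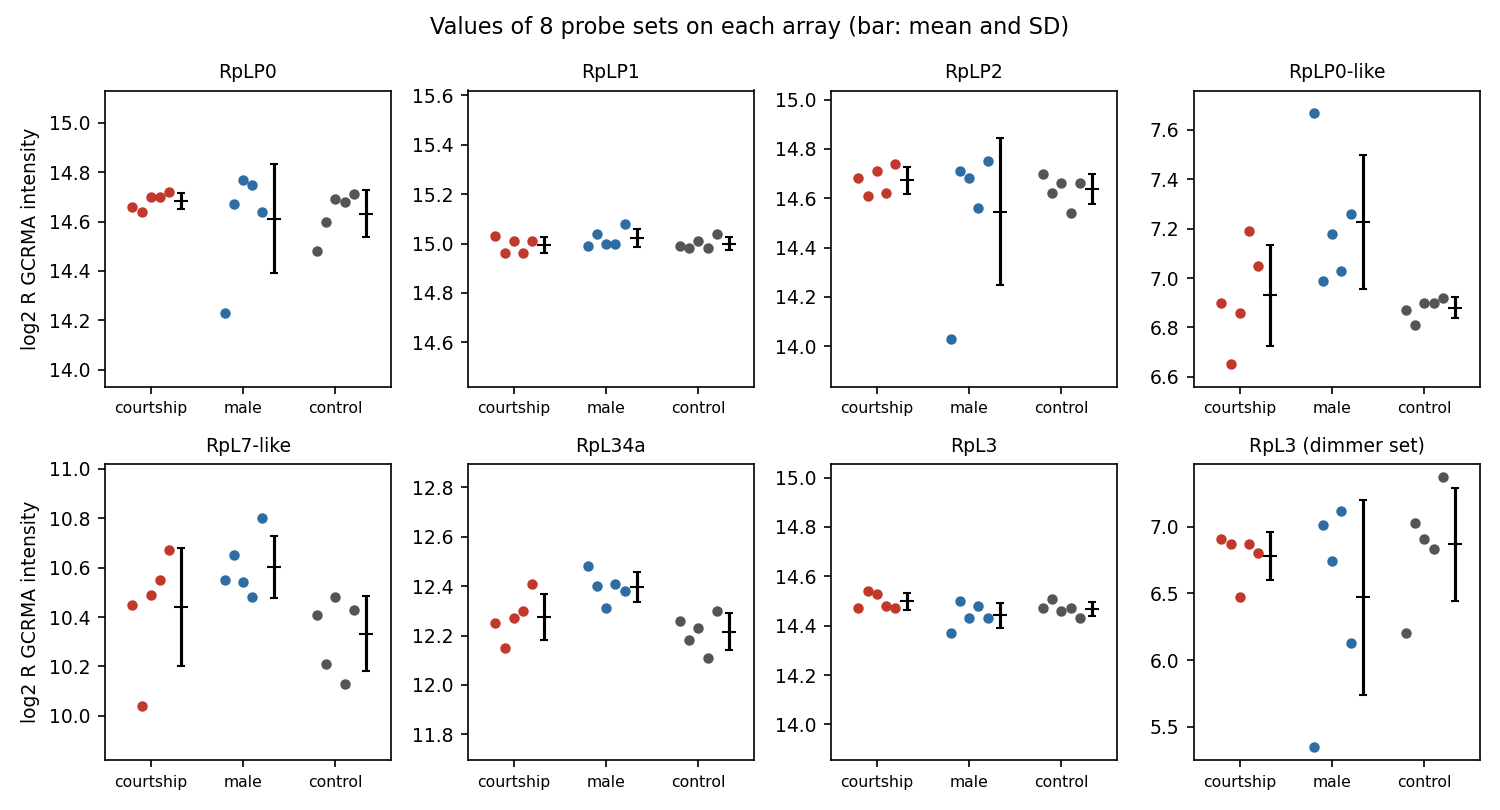
Log2 R GCRMA intensity of 8 probe sets on each array (points; arrays 1 to 5 from left to right within an arm) with the mean and SD of the 5 arrays of each arm; the vertical ranges differ between panels. Male array 1 is lowest for RpLP0 (14.23), RpLP2 (14.03) and the dimmer RpL3 set (5.35) and highest for RpLP0-like (7.67).

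Small subunit proteins were read by 12 tested probe sets for 11 genes, and their differences were narrower still. Courtship exceeded control in 11 of 12, with differences between -0.01 and 0.04, with a median of 0.02. In male against control all 12 were higher, between 0.02 and 0.11, with a median of 0.07, and none was called. RpS12, which in flies also takes part in cell competition between cells that carry different ribosomal protein doses, read 14.58, 14.48, 14.54, 14.59 and 14.60 on male arrays and 14.50, 14.47, 14.47, 14.39 and 14.47 on control arrays. The arms overlapped slightly and the difference was 0.10 (SE 0.05, adjusted p = 0.172). RpS15 read 14.82, 14.75, 14.74, 14.74 and 14.89 on male arrays and 14.73, 14.65, 14.73, 14.68 and 14.71 on control arrays. Its arms did not overlap, and the difference was 0.09 (SE 0.05, adjusted p = 0.22). RpS27A, the other ubiquitin fusion, differed by 0.03 (SE 0.05). The 2 tested probe sets of RpS29 gave 0.08 and 0.05.

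Members whose arms did not overlap were few. In male against control they were RpL34a, RpLP0-like and RpS15, 3 of 35 (8.57%), all higher in male, against 7.26% of all tested probe sets; 0 of 35 were separated downwards, against 3.73%. No member was separated in either direction in courtship against control (0 of 35, against 0.605% of all) or in courtship against male (0 of 35, against 1.84%).

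The balance between the subunits was followed within each array. Per array, the mean log2 of the 21 large subunit probe sets minus that of the 12 small subunit ones was -0.56, -0.58, -0.61, -0.62 and -0.59 in courtship, -0.74, -0.57, -0.62, -0.60 and -0.63 in male, and -0.64, -0.58, -0.58, -0.60 and -0.58 in control. The level of this difference reflects probe brightness and only its change between arms has a meaning. It changed by 0.00 in courtship and by -0.04 in male, both set against control, and by 0.04 in courtship set against male, with an SD between arrays within arms of 0.04. Male array 1 was the lowest of the 15. With MAS5 values male differed from control by -0.05 and courtship from male by 0.04 (SD 0.03), and with dChip PM values male differed from control by -0.04 (SD 0.03), so the size of the change against the SD depends on the processing. No test was made. With 1 probe set per gene, an alternative added after the data had been seen, courtship differed from control by 0.01, male from control by -0.02 and courtship from male by 0.02.

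**Figure D4:**
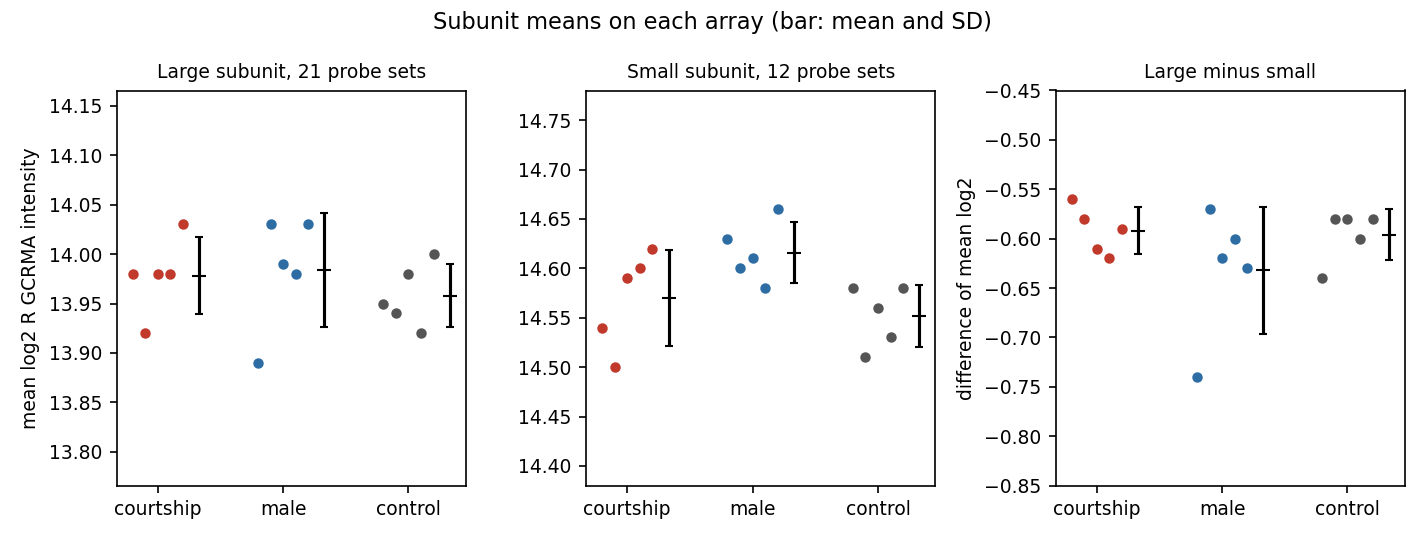
Mean log2 R GCRMA intensity of the 21 large subunit and 12 small subunit probe sets, and their difference, on each array (points) with the mean and SD of each arm of 5. The arms overlap for the large subunit and for the difference. For the small subunit, male (14.58 to 14.66) and control (14.51 to 14.58) only meet at the edge, and courtship (14.50 to 14.62) overlaps both. Male array 1 has the lowest large minus small value (-0.74).

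Paralogues could be compared in 5 of 14 listed pairs, those with both copies named on the array. In 4 of them one copy was at the floor on every array and the other bright. These were RpL10Aa with RpL10Ab, RpL37-1 with RpL37-2, and RpS28a and RpS28-like each with RpS28b. Small shifts at the floor also enter the change in such a pair. RpL37-1 minus RpL37-2 changed by -0.02 in male against control, while the bright RpL37-1 differed by 0.05. The floor copy RpL37-2 averaged 2.54 in male and 2.46 in control. RpL10Ab read 14.52 ± 0.02 in courtship, 14.58 ± 0.07 in male and 14.55 ± 0.04 in control, and RpS28b read 14.87 ± 0.03 in courtship, 14.89 ± 0.03 in male and 14.85 ± 0.02 in control (SD, n = 5 each). Over the 15 tests of 5 pairs in 3 comparisons, none had an adjusted p under 0.05 in the exact two-sided permutation test, whose smallest possible p was 0.00794. A single test at that p would have an adjusted p of 0.119, and 3 tests at it were needed to pass, so no single test could pass alone.

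RpLP0 and RpLP0-like were the only pair with both copies above the floor. The log2 difference of RpLP0 minus RpLP0-like changed by -0.37 in male against control, with an exact permutation p of 0.0238 and an adjusted p of 0.357 over the 15 tests. Without male array 1, where RpLP0 was lowest and RpLP0-like highest, the change was -0.16 (exact permutation p = 0.0317, adjusted p = 0.238). Without male arrays 1 and 5 together the change was -0.09 (exact permutation p = 0.125, adjusted p = 0.625). In courtship against control the change was 0.00 (exact permutation p = 1).

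The members varied little between arrays of an arm. Their median residual SD was 0.05 on the log2 scale, against 0.18 over all tested probe sets, and 29 of 35 (82.9%) had one under 0.1, against 10.8% of all. Probe sets as bright as these were generally steady: the 149 with a mean of at least 14 had a median of 0.06. The 5 members with the largest spread were the dimmer RpL3 set (0.50), RpLP0-like (0.20), RpLP2 (0.18), RpL7-like (0.18) and RpLP0 (0.14).

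**Figure D5:**
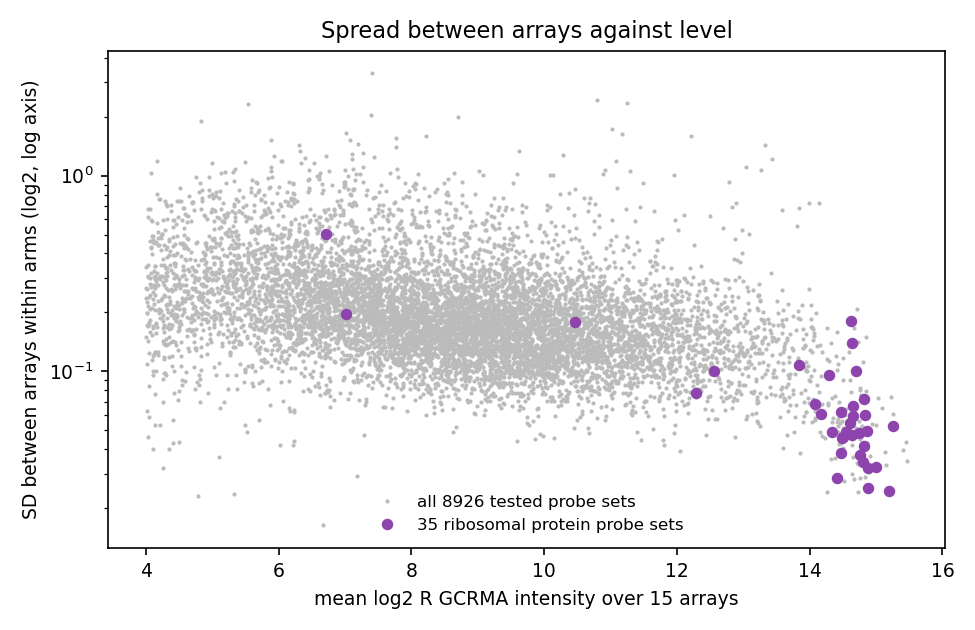
SD between arrays within arms (log2, log axis) against mean log2 R GCRMA intensity for all 8926 tested probe sets (grey) and the 35 ribosomal protein probe sets (purple). Most members lie at the bright, low-spread end, with a median SD of 0.05 against 0.18 overall.

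Other genes of the translation machinery were followed as listed groups. Of 25 measured ribosome biogenesis genes, 1 of which is the member RpLP0-like, 21 were higher and 4 lower in male against control, with a median log2 difference of 0.17, against 0.02 over all tested probe sets. Of these 1 passed the test, NHP2, a protein of the complex that turns uridines of ribosomal RNA into pseudouridines, at 8.69 ± 0.13 in male and 8.27 ± 0.12 in control (SD, n = 5 each), a difference of 0.42 (adjusted p = 0.0387). The share called over all was 3.66% there. An unadjusted p under 0.05 was reached by 8 of the 25, where 34.1% of all tested probe sets reached it. Without male arrays 1 and 5 the group's median was 0.13 and NHP2 was not called (adjusted p = 0.142), nor was it without control array 2 (adjusted p = 0.107), within a range of 0.0121 to 0.142 over 31 alternatives, of which 16 called it. Courtship was higher than control in 18 of the 25, with a median of 0.04, and none passed.

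Of 32 tested translation initiation genes 19 were higher and 13 lower in male against control, with a median log2 difference of 0.06. Among them 1 passed the test, eIF4G2, of the family that scaffolds the cap-binding complex. It was lower, at 10.76 ± 0.22 in male and 11.25 ± 0.15 in control (SD, n = 5 each). The difference was -0.50 (adjusted p = 0.0386), where 3.66% were called over all. The call was lost without male arrays 1 and 5 (adjusted p = 0.11) and without control array 2 (adjusted p = 0.107), within a range of 0.00705 to 0.11 over 31 alternatives, of which 18 called it. None passed in the other 2 comparisons. None of 4 elongation factors passed in any comparison: eEF1alpha2 differed by -0.21 (adjusted p = 0.094) and eEF1delta by 0.17 (adjusted p = 0.1) in male against control. Of 13 tested genes of TOR and growth signalling, which sets ribosome production by nutrient state, none passed. In male against control 4 were higher and 9 lower, with a median log2 difference of -0.15. Without male arrays 1 and 5 the counts were 2 and 11 and the median was -0.13. The smallest p in male against control was that of the kinase Pdk1, at -0.57 (adjusted p = 0.0644). Rack1, a small subunit protein under another name, differed by 0.02 in that comparison (adjusted p = 0.88).

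Markers of head cell types were summed on each array, on the scale of log2 of the summed intensity. The sum of the 3 measured neuronal markers ran from 8.78 to 10.90 on male arrays and from 10.23 to 11.48 on control arrays. For the 2 photoreceptor markers the range was 14.36 to 14.56 on male arrays and 14.67 to 14.95 on control arrays, so these arms did not overlap. Of all single probe sets tested, 3.73% were separated downwards in that comparison. The 3 glial markers summed to between 11.81 and 12.10 on male and between 11.43 and 11.92 on control arrays, and the 6 fat body markers to between 11.86 and 12.59 on male and between 11.37 and 12.04 on control arrays. Muscle markers, 4 in all, summed to between 10.93 and 12.11 on male and between 11.84 and 12.28 on control arrays, and the 5 haemocyte markers to between 8.98 and 9.48 on male and between 8.82 and 9.67 on control arrays. Without male arrays 1 and 5 the median log2 difference of the neuronal markers in male against control was -0.05, against -0.44 with all arrays, and that of the muscle markers -0.13, against -0.38. The other medians moved less. They were -0.25 against -0.28 for photoreceptors, 0.42 against 0.43 for fat body, 0.24 against 0.14 for glia and 0.32 against 0.28 for haemocytes. The medians cover tested markers only, 2 of the 6 fat body, 2 of the 5 haemocyte and 3 of the 4 muscle markers. With all arrays the fat body genes Lsp2 and Yp3 differed by 0.76 and 0.10. The haemocyte genes went opposite ways, Hml by 0.60 and Pxn by -0.05. Among fat body genes Yp1, Yp2, Fbp1 and Fbp2 were at the floor, with means of 2.56, 2.27, 2.24 and 2.28. Yp3 averaged 9.62 and Lsp2 11.62. Among blood cell genes He, eater and NimC1 lay under the limit of 4, at 2.19, 2.44 and 3.29, while Pxn averaged 8.85 and Hml 6.18. Of these markers 1 passed the test, trp, with a log2 difference of -0.34 in male against control (adjusted p = 0.0485). In that comparison 3.66% of all tested probe sets were called. The trp call was lost without male arrays 1 and 5 (log2 difference -0.27, adjusted p = 0.16) and without control array 2 (adjusted p = 0.117). Its adjusted p ran from 0.0166 to 0.16 over 31 alternatives, of which 15 called it. The part of these differences in the values of the ribosomal protein genes was not tested.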

How the data were processed

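Labelled head RNA from 15 pools was hybridised to 15 arrays, per the labels. The authors deposited intensity values on a linear scale under 5 processings (R GCRMA, GeneSpring GCRMA, dChip PM, dChip PM-MM and MAS5), and GCOS 1.2 and GCRMA are named in the submitters' processing notes. Other versions and settings: not given in the sources used here. GCRMA models background from probe sequence and normalizes across arrays, so dim probe sets spread little. Log2 was taken here of the R GCRMA values. The 8926 of 18769 probe sets with a mean of at least 4 entered a one-way limma 3.58.1 fit (R 4.3.3) over the 3 arms, with two-sided p-values adjusted by Benjamini-Hochberg over all of them per comparison. Paralogue pairs had an exact permutation test. The fit was tested on simulated data with independent normal errors, in male against control. It recovered 127 of 200 probe sets changed 1.5-fold and 181 of 200 changed 2-fold, with 10 false calls each. Deviations shared between probe sets of an array were not simulated. No depth applies to arrays, and 5 per arm limit the precision.

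Members, lists and settings were chosen with earlier results of these data known. Named members were drawn from, per comparison, the 6 of smallest p in each direction, members of paralogue pairs, the stalk proteins, the 5 of largest spread and those under 4. Not all members that fall under this rule are described above, RpL17, RpL27 and RpL36A among those left out. RpL40, RpS27A, RpS15 and the second RpS29 set were added after their values were seen. Alternatives covered the 4 other processings, filters, scalings, blocks, variance settings and arrays left out. Sequences of promoters and proteins were not used here.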

Additional observations from a re-analysis of the deposited data

Results flagged for a closer look

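Single arrays stood apart from the other 4 of their arm (gap to the nearest array over 0.71 of the arm's range) in 12 cases among 111 groups of 5 looked at, where chance gives about 1 in 20. Male array 1 was low for RpLP2 (14.03, others 14.56 to 14.75), RpLP0 (14.23, others 14.64 to 14.77) and the dimmer bright RpS29 set (14.22, others 14.33 to 14.38), and high for RpL15 (15.24, others 15.17 to 15.18). Male array 3 was low for RpL28 (14.35) and RpL37-1 (14.61). Courtship array 3 was high for RpL28 (14.46) and low for the dimmer RpL3 set (6.47, others 6.80 to 6.91), and courtship array 4 was low for RpL41 (15.15). Control array 1 was high for RpL29 (14.76) and low for RpL41 (15.13), and control array 4 was low for RpS12 (14.39). The part of RNA quality in these gaps was not tested.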

How the results depend on the processing

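The count of members called stayed at 0 in courtship against control and in courtship against male under all 32 settings tried for each. In male against control it was 1 of 35 with array weights (RpL34a, adjusted p = 0.0371), where 1873 of all 8926 tested probe sets were called. It was 2 of 35 at an adjusted p of 0.10 (RpL34a and RpLP0-like), where 2083 of the 8926 were called. Under the other 30 it was 0. The median log2 difference in male against control was 0.00 with dChip PM-MM and 0.09 with MAS5, against 0.05; other settings moved no median by more than the SD between arrays, and leaving out each array in turn gave 0.03 to 0.06. The change in large minus small subunit ran from -0.01 to 0.01 in courtship against control, -0.05 to 0.00 in male against control and 0.00 to 0.05 in courtship against male. No paralogue pair passed under any setting. In the permutation settings a single test alone could not pass, while limma on the pair differences has no such bound. Of 35 members, the sign of the difference changed with dChip PM-MM in 16 in courtship against control and in 14 in male against control, and for male against control also in 7 without male arrays 1 and 5 and in 4 with MAS5; none was called. With the first code letter as a block, courtship was higher than control in 18 and lower in 17, the median in courtship against male was -0.07, against -0.03, and calls over all there were 169, against 0. Calls over all in male against control ran from 0 to 1027 with each array left out in turn. The labels do not say whether the replicate numbers shared by the arms pair the arrays. The 15 correlations of deviations between arrays of the same number ran from -0.288 to 0.473, with 10 over 0.1, which does not settle it. With a replicate block 0 members were called in each comparison. The median in male against control was then 0.05, while 1690 probe sets in all were called in that comparison, against 327. Limits: most members lie near the top of the scale, 51 genes of the family were not analysed here, and 5 arrays per arm bound the precision.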
